A study of Homo sapiens with 58 samples.

Results

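The response of human keratinocytes to tumour necrosis factor alpha (TNF-α) was measured in HaCaT-vector, a line of HaCaT cells carrying an empty expression vector, so that the cells had only their own NF-kB proteins. HaCaT is a spontaneously immortalised, non-tumorigenic line of human skin keratinocytes. The comparison was chosen by its labels: 3 arrays of HaCaT-vector with TNF and 4 arrays with no stimulus, all at 4 h, without serum and without inhibitor, which is 7 of the 58 arrays of the series. All cells had been kept in serum-free medium, for 12 h, and TNF-α was given at 10 ng/ml, a protocol that the methods give for the EGFR line. The other arrays cover HaCaT lines with forced expression of EGFR, RELA/p65 or mutant HRAS, with serum, EGF, TNF or none, and in part with kinase inhibitors. Further arrays serve for comparison, namely HaCaT-vector with EGF at 4 h and HaCaT-p65 with and without TNF. HaCaT-vector and HaCaT-p65 are each a single engineered line, and the labels do not say whether the replicates of a group were separate cultures. The p-values therefore measure only the spread between arrays of the same condition, pooled over all 58 arrays. The arrays were of the Affymetrix U133 Plus 2.0 type and the values are log2 expression levels, 1 probe set for each of 19775 genes. A level is always a log2 level here and a change is a difference of mean log2 levels, fitted across all 58 arrays and adjusted for the array batch.

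TNF-α is a cytokine of inflamed skin that signals mainly through TNF receptor 1. The receptor recruits TRADD, TRAF and RIP kinase adaptors, which activate the IkB kinase complex. The kinase marks the inhibitor IkBα for degradation and releases NF-kB dimers, mostly of p65 (RELA) and p50 (from NFKB1), which enter the nucleus and bind kB sites. Their targets in keratinocytes include chemokines, cytokines, adhesion molecules, survival factors and the inhibitors that later switch the pathway off. Interferon regulatory factors, IRF1 among them, act at a second class of elements that carry repeated TTTC cores.

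After 4 h of TNF, 175 genes were higher and 4 were lower than without stimulus, out of 19775 tested (limma, adjusted p under 0.05). This is 0.885% of genes that rose and 0.0202% that fell. The median change of the genes that rose was 1.02, while the median over all genes was -0.01. Of the 175 genes, 95 rose by more than 1 and 19 by more than 2. All 3 TNF arrays lay above all 4 unstimulated arrays for each of the 175 genes; over all genes, this was so for 8.95%, and the reverse for 12.6%. It follows from this separation that each of the 175 was also higher within batch 4 and within batch 5, which is no further check. The count rested in part on single arrays: 57 genes passed without TNF replicate 1, the only TNF array of batch 5, and 98 passed without unstimulated replicate 3, the only unstimulated array of batch 4. Of the genes that rose, 52 passed whichever of the 7 arrays was left out. A lost call need not be a lost change. Without TNF replicate 1, KYNU, NFKB1 and RELB no longer passed. Their changes were then 2.44, 0.89 and 0.88, against 2.46, 1.01 and 1.09 with all arrays. A higher level in bulk RNA can come from more RNA per cell or from a larger share of responding cells, which cannot be told apart here.

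**Figure D1:**
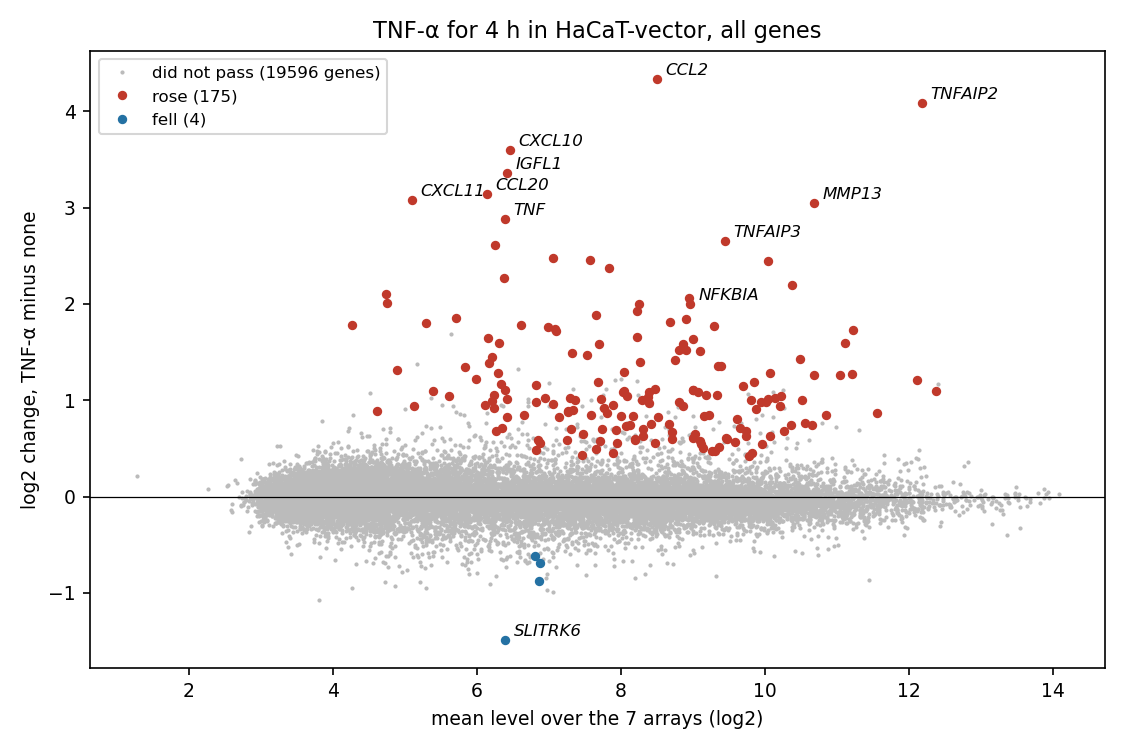
Mean log2 level over the 7 arrays (x axis) against the log2 change with TNF at 4 h (y axis) for the 19775 genes measured in HaCaT-vector, with the genes that passed in colour. The 175 genes that rose reach a change of 4.34 for CCL2, and the 4 genes that fell reach -1.49 for SLITRK6.

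The chemokine CCL2 rose most, 20.2-fold, followed by TNFAIP2 (16.9-fold), CXCL10 (12.1-fold), IGFL1 (10.2-fold) and CCL20 (8.81-fold). Promoters of genes with the largest rises and of 2 feedback inhibitors follow, since the comparison concerns NF-kB and the kB site is the sequence this factor binds. Each is the 250 bases before the annotated start, 5′ to 3′ on the gene's strand, from RefSeq on GRCh38.p14, in lower case with matches to the kB consensus on either strand in capitals. The promoter set used held no window for CCL2 or MMP13.
TNFAIP2, chr14:103123211-103123460, plus strand: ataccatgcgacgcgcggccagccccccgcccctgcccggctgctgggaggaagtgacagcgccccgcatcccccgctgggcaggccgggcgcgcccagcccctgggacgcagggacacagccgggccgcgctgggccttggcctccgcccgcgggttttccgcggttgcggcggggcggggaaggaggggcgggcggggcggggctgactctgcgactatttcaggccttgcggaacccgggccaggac
CXCL10, chr4:76023498-76023747, minus strand: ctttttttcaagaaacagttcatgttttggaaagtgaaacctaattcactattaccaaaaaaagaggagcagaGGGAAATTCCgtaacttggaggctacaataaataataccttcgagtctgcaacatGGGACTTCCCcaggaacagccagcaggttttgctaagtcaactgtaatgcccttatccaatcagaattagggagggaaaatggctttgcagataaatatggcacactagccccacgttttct
IGFL1, chr19:46229492-46229741, plus strand: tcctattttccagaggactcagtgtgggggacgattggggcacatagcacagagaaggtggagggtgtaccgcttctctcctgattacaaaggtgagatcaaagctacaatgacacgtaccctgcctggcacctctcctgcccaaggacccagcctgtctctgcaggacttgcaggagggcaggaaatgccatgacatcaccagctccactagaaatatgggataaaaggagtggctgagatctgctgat
CCL20, chr2:227813592-227813841, plus strand: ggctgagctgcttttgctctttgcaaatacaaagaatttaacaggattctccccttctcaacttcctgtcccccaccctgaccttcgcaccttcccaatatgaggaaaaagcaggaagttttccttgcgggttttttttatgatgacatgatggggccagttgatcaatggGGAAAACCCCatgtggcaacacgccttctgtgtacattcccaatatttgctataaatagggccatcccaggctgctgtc
CXCL11, chr4:76036071-76036320, minus strand: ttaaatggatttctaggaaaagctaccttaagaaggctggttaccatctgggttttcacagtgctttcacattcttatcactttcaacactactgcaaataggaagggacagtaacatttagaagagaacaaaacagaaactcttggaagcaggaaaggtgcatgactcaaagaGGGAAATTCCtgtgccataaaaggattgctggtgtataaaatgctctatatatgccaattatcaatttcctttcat
TNF, chr6:31575315-31575564, plus strand: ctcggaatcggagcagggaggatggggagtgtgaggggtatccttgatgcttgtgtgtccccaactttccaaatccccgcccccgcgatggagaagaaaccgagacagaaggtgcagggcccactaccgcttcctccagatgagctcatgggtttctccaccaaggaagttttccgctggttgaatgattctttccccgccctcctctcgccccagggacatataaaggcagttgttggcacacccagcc
NFKBIA, chr14:35404750-35404999, minus strand: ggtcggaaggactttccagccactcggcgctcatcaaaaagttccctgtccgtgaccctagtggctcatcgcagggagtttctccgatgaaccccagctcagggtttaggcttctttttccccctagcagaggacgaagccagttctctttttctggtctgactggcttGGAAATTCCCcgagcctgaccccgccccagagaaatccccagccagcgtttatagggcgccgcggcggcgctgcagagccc
TNFAIP3, chr6:137867009-137867258, plus strand: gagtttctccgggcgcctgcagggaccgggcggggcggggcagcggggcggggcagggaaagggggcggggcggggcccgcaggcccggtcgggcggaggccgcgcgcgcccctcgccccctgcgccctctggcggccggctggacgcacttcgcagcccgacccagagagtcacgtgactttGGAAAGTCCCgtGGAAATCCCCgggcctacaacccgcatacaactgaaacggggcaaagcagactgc
The kB consensus of 10 bases was found in CCL20 at bases -79 to -70 from the start, in CXCL11 at -76 to -67 and in NFKBIA at -81 to -72. CXCL10 held matches at -177 to -168 and at -122 to -113, the latter reading on both strands. TNFAIP3 held a close pair at -67 to -58 and -55 to -46. No match lay in the windows of TNFAIP2, IGFL1 and TNF. A match is only a run of letters in this window, and its absence says nothing about binding elsewhere. Over windows of 300 bases (250 before and 50 after the start), 12.4% of the 15384 measured genes with a window held a match on either strand, against 44 of 141 (31.2%) of the genes that rose. The letters TTCNNTTTC, read on either strand, part of the element bound by interferon regulatory factors, occurred in 6.71% of all windows and in 37 (26.2%) of the genes that rose. Matches of both kinds may overlap and were counted separately. Among the interferon-response genes that rose, 14 of 20 windows (70%) held TTCNNTTTC and 9 (45%) held a kB match. Among the CXC chemokines that rose, 6 of 8 (75%) held a kB match and 4 (50%) TTCNNTTTC. CXCL10 and CXCL11 belong to both sets, and the CXC set is small and holds close paralogs.

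In what follows, unstimulated levels are given in the order replicate 3 (batch 4), replicates 1 and 2 (batch 5) and a second array numbered 1 (batch 6), and TNF levels in the order replicates 2 and 3 (batch 4) and replicate 1 (batch 5). CCL2, which attracts monocytes, had levels of 6.50, 6.41, 6.68 and 6.95 without stimulus and 11.09, 10.57 and 11.26 with TNF. The groups lay far apart, with a change of 4.34 (SE 0.522, adjusted p = 9.6e-07). TNFAIP2, a TNF-induced gene of vascular and epithelial cells, had 10.47, 10.40, 10.36 and 10.48 without and 14.44, 14.53 and 14.55 with TNF, a change of 4.08 (SE 0.515, adjusted p = 1.97e-06). Its replicates were close, but its second probe set changed by 0.58 only and did not pass. The SE of these fits comes from the spread of a gene between arrays of the same condition, pooled over all conditions of the series. It is therefore often wider than the spread within the 7 arrays. IGFL1, a small secreted protein of the IGF-like family found in inflamed skin, had 5.26, 4.94, 4.90 and 4.82 without and 8.20, 8.38 and 8.43 with TNF, a change of 3.35 (SE 0.293, adjusted p = 8.49e-10).

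**Figure D2:**
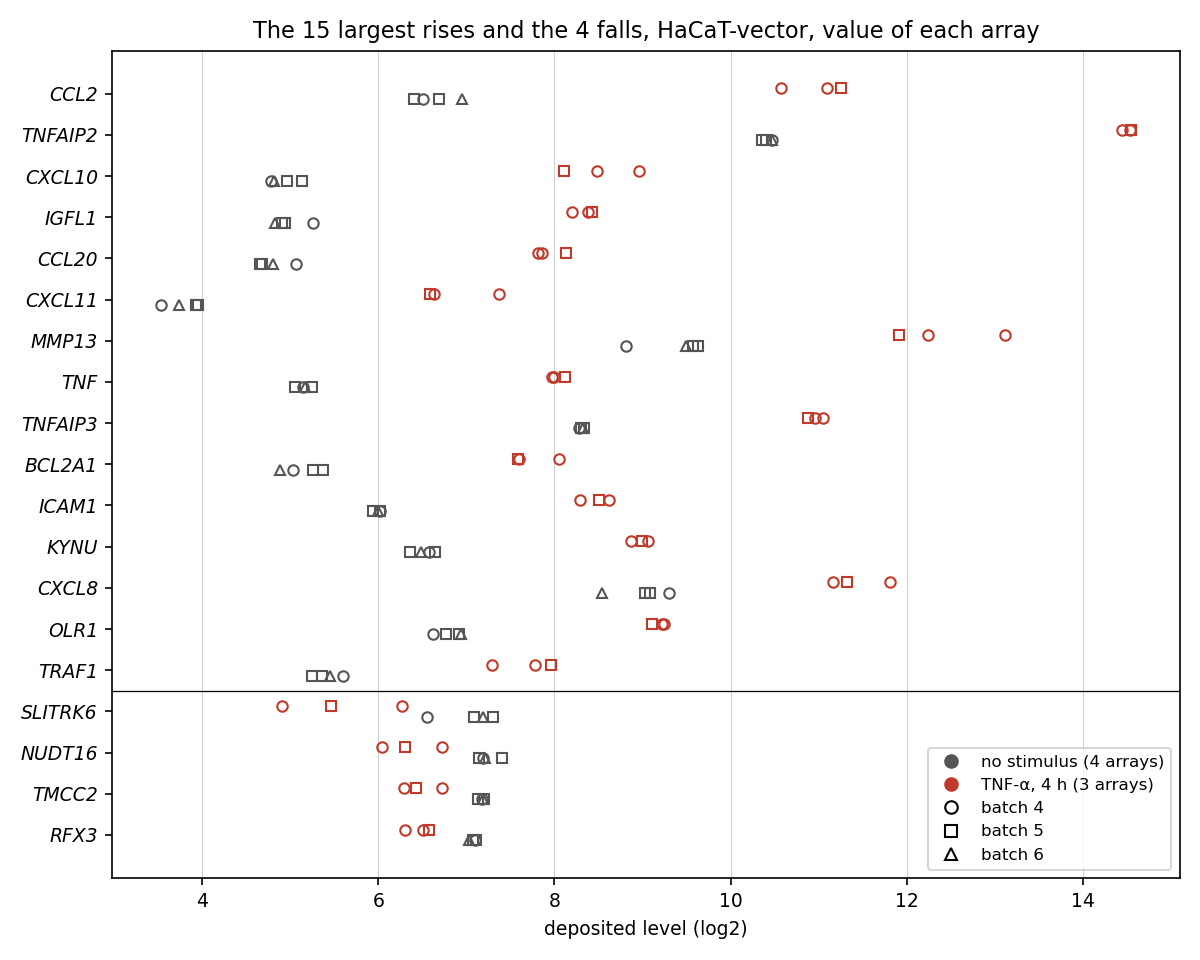
Log2 level (x axis) of the 15 genes with the largest rises and the 4 that fell (rows) in each of the 7 HaCaT-vector arrays, with the group in colour and the batch as the shape of the point. In the 15 rises the lowest TNF array lies above the highest unstimulated array, and in the 4 falls the order is turned.

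The receptors for TNF did not pass. TNFRSF1A, TNF receptor 1, had mean levels of 9.28 without and 9.20 with TNF (change -0.08, SE 0.126, adjusted p = 0.999), and TNFRSF1B, TNF receptor 2, changed by 0.09 (SE 0.227, adjusted p = 0.999). Counts of rises in the lists, with TNF against none in HaCaT-vector, stand beside 0.885% of all genes that rose and 0.0202% that fell. Of 26 measured genes of TNF receptor signalling, 3 rose and the median change was 0.06. These were adaptors and a caspase inhibitor. TRAF1, an adaptor of TNF receptor family members, went from 5.60, 5.36, 5.24 and 5.45 to 7.29, 7.78 and 7.97 (change 2.27, SE 0.353, adjusted p = 8.91e-05), with no overlap, while its second probe set changed by 0.79 and did not pass. CFLAR, which encodes cFLIP and blocks caspase-8, rose by 0.98 (SE 0.12, adjusted p = 1.21e-06), and 9 of its 13 other probe sets also rose. TRAF3, a regulator of the non-canonical branch, rose by 0.58 (SE 0.11, adjusted p = 0.00159), a call lost without TNF replicate 1.

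Among the 5 NF-kB subunit genes, NFKB1 and RELB rose and the median change was 0.64. NFKB1, the precursor of p50, had 7.28, 7.21, 7.31 and 7.34 without and 8.14, 8.33 and 8.42 with TNF, a change of 1.01 (SE 0.183, adjusted p = 0.000842). RELB, the partner of p52 in the non-canonical dimer, rose by 1.09 (SE 0.243, adjusted p = 0.0102). Both calls were lost without TNF replicate 1. NFKB2, the precursor of p52, changed by 0.64 (adjusted p = 0.146), RELA by 0.25 and REL by 0.10, none of which passed.

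Of the 12 measured inhibitors of the pathway, 6 rose, none fell, and the median change was 0.73. TNFAIP3, which encodes the ubiquitin-editing enzyme A20, had 8.28, 8.34, 8.30 and 8.33 without and 11.05, 10.96 and 10.88 with TNF, a change of 2.65 (SE 0.268, adjusted p = 2.18e-08). NFKBIA, which encodes IkBα, had 8.11, 8.09, 8.12 and 8.12 without and 10.01, 10.03 and 10.27 with TNF, a change of 1.99 (SE 0.211, adjusted p = 4.63e-08). For both inhibitors the replicates of each group lay close together and the groups were well separated. TNIP1, an A20 partner, rose by 1.43 (SE 0.183, adjusted p = 2.35e-06), but its second probe set changed by -0.04. NFKBIE, which encodes IkBε, rose by 0.87 (SE 0.119, adjusted p = 7.93e-06). These 4 passed without any one of the 7 arrays. TRAFD1 rose by 0.76, passing only without the batch 6 array among the repeats, and TNIP2 by 0.69, a call lost without TNF replicate 1, while CYLD, a deubiquitinase, at 0.69 (adjusted p = 0.051) and NFKBIZ, an atypical IkB, at 0.78 (adjusted p = 0.14) did not pass.

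Of the 16 CXC chemokines 8 rose, none fell, and the median change was 1.20. Among those that attract activated T cells through CXCR3, CXCL10 had 4.78, 5.14, 4.97 and 4.82 without and 8.48, 8.96 and 8.11 with TNF (change 3.59, SE 0.526, adjusted p = 2.81e-05). CXCL11 had 3.53, 3.96, 3.93 and 3.73 without and 6.63, 7.37 and 6.59 with TNF, a change of 3.08 (SE 0.358, adjusted p = 4.76e-07). Both were thus near the low end of the scale before TNF and clearly raised in each TNF array. CXCL9, the third ligand of this receptor, rose by 0.88 (adjusted p = 0.00931), a call lost without unstimulated replicate 3 or TNF replicate 3. Among those that attract neutrophils, CXCL8 (interleukin-8) had 9.30, 9.09, 9.03 and 8.54 without and 11.81, 11.17 and 11.32 with TNF, a change of 2.44 (SE 0.307, adjusted p = 1.97e-06). CXCL1, CXCL3 and CXCL2 rose by 2.06, 1.78 and 1.76, the last of these not without TNF replicate 1. These genes are close paralogs and their probes may cross-hybridise. CXCL6 rose by 1.52 (adjusted p = 0.0365) and passed in only 1 of the 7 repeats with an array left out, that without unstimulated replicate 1 of batch 5. CXCL5 changed by 1.69 and did not pass (adjusted p = 0.113), and CXCL14 changed by -0.15.

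Of 15 measured CC and CX3C chemokines, 3 rose and the median change was 0.23. Beside CCL2 these were CCL20, the ligand of CCR6 on Th17 and dendritic cells, and CCL5, which attracts T cells. CCL20 had 5.07, 4.67, 4.65 and 4.81 without and 7.82, 7.86 and 8.13 with TNF, a change of 3.14 (SE 0.328, adjusted p = 4.02e-08), with no overlap of the groups. CCL5 rose by 1.01 (adjusted p = 0.00466), a call lost without TNF replicate 1. CCL22 changed by 0.61 and CCL27, a skin chemokine, by 0.39; neither passed.

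Of 41 measured cytokine genes, 12 rose, with a median change of 0.35 over the list. TNF itself had 5.14, 5.05, 5.25 and 5.17 without and 8.00, 7.98 and 8.12 with TNF, a change of 2.88 (SE 0.266, adjusted p = 2.36e-09). This was a rise of the cells' own TNF RNA, with replicates that differed little in either group. IL36G, an interleukin-1 family cytokine of psoriatic epidermis, rose by 1.85 (SE 0.308, adjusted p = 0.000241), and IL32 by 1.35 (SE 0.205, adjusted p = 5.65e-05). LTB, the membrane anchor of lymphotoxin, rose by 1.60, INHBA, the activin A subunit, by 1.27 and IL1B by 1.10, all 3 calls being lost without TNF replicate 1. The second probe set of LTB changed by 0.14 and did not pass. TNFSF10 (TRAIL), CSF1, VEGFC, BMP2, IL15 and TNFSF15 also rose, by 0.95 to 1.28. Without TNF replicate 1 none of these 6 passed, and CSF1 and IL15 each passed in only 1 of the 7 repeats with an array left out. IL6 changed by 0.23 and IL1A by 0.35 (adjusted p = 0.999), neither past the threshold.

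Among 33 adhesion molecules and surface receptors, 7 rose and the median change was 0.43. ICAM1, the ligand of leukocyte β2 integrins, had 6.02, 6.01, 5.93 and 6.00 without and 8.28, 8.62 and 8.50 with TNF, a change of 2.48 (SE 0.356, adjusted p = 1.87e-05). Its unstimulated arrays were nearly equal, and its TNF arrays lay well above them. CD83, best known from mature dendritic cells, rose by 1.63, IL7R by 1.59 and IFNGR2, a chain of the interferon gamma receptor, by 0.98, and each of these, like ICAM1, passed without any one array. CD40, IFNGR1 and IL15RA rose by 0.83, 0.68 and 0.65, none of them without TNF replicate 1. The endothelial adhesion genes VCAM1 and SELE changed by 0.15 and -0.03 and did not pass. In the list of survival and cell death genes, 3 of 25 rose, namely CFLAR, RIPK2 (0.65, lost without TNF replicate 1) and BCL2A1, an anti-apoptotic BCL2 relative. BCL2A1 had 5.03, 5.37, 5.26 and 4.88 without and 7.60, 8.05 and 7.59 with TNF (change 2.61, SE 0.507, adjusted p = 0.00213).

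Genes of the interferon response made up the largest number of calls in a list: 22 of 41 rose, none fell, and the median change was 1.08. In 39 of the 41 all TNF arrays lay above all unstimulated ones, against 8.95% of all genes, and the lowest change of the list was 0.24. IRF1, a transcription factor downstream of both NF-kB and interferon gamma, had 8.15, 8.17, 8.16 and 8.06 without and 9.33, 9.84 and 9.50 with TNF, a change of 1.42 (SE 0.192, adjusted p = 7.79e-06). Antiviral effectors rose beside it. OAS1, which makes the activator of RNase L, had 8.47, 8.32, 8.58 and 8.41 without and 9.81, 10.08 and 9.98 with TNF (change 1.51, SE 0.273, adjusted p = 0.000829). RSAD2 (viperin) had 10.64, 10.52, 10.37 and 10.41 without and 11.78, 12.61 and 12.24 with TNF, a change of 1.73 (SE 0.286, adjusted p = 0.000237). The guanylate-binding protein GBP3 rose by 1.36 (SE 0.191, adjusted p = 1.48e-05). Groups did not overlap in any of these. MX1, a dynamin-like antiviral GTPase, rose by 1.81 (adjusted p = 0.00252), a call lost without TNF replicate 1, and XAF1 by 1.92, lost without TNF replicate 1 or unstimulated replicate 3. Calls in this list were open to single arrays, with 7 of its 22 genes passing without TNF replicate 1, 9 without unstimulated replicate 3, and 6 (CXCL10, CXCL11, GBP3, IRF1, OAS1 and RSAD2) without any one array. MX2 changed by 1.75 (adjusted p = 0.14) and GBP2 by 1.20 (adjusted p = 0.15), and neither passed. The gene of interferon beta, IFNB1, had levels of 3.71, 3.88, 3.88 and 3.70 without and 3.92, 4.66 and 3.90 with TNF, and did not pass (change 0.37, adjusted p = 0.973).

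Of 18 genes of class I antigen presentation, 9 rose, with a median change of 0.44. TAP1, a subunit of the peptide transporter, rose by 1.10 (SE 0.163, adjusted p = 3.24e-05) from 8.62, 8.41, 8.52 and 8.54 to 9.43, 9.68 and 9.76, without overlap, and was the only gene of the list that passed whichever array was left out; without TNF replicate 1 it alone passed. The trimming peptidase ERAP2, the class I activator NLRC5 and the immunoproteasome subunits PSMB9 and PSMB10 rose by 1.05, 1.00, 0.75 and 0.59. HLA-F, HLA-B, HLA-E and HLA-C rose by 0.46 to 0.54, but their sequences are so alike that probes may not tell them apart. B2M, the common light chain, changed by 0.08 and did not pass.

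Among 27 proteases and matrix genes 4 rose, with a median change of 0.30. MMP13, a collagenase, had 8.81, 9.63, 9.57 and 9.50 without and 13.11, 12.24 and 11.92 with TNF, a change of 3.04 (SE 0.496, adjusted p = 0.000195). Its groups did not overlap, although unstimulated replicate 3 lay below the other unstimulated arrays. PLAU, the urokinase plasminogen activator, rose by 1.52 (SE 0.278, adjusted p = 0.000905), SERPINA3 by 1.78, a call lost without unstimulated replicate 3 or TNF replicate 3, and LAMB3, a laminin chain of the basement membrane, by 1.01, lost without 5 of the 7 arrays. MMP9 changed by 0.50 and did not pass. Of 20 complement and acute phase genes 3 rose and the median change was 0.14: complement factor B, CFB, by 1.72 (SE 0.237, adjusted p = 9.43e-06), C1QTNF1 by 1.16 (their second probe sets changed by 0.49 and 0.33 and did not pass), and SOD2, the mitochondrial superoxide dismutase, by 0.84, lost without unstimulated replicate 3. C3 changed by 0.92 (adjusted p = 0.0678) and did not pass. KYNU, an enzyme of tryptophan breakdown, rose by 2.46 (SE 0.463, adjusted p = 0.00143), with levels of 6.36 to 6.65 without and 8.87 to 9.07 with TNF, but had an adjusted p of 0.0609 without TNF replicate 1. None of its 3 other probe sets passed (changes of 0.96 to 1.64), and the mean over its probe sets changed by 1.61. PTGS2 (cyclooxygenase 2) changed by -0.52 (adjusted p = 0.762). SMAD3 was the only one of 20 TGF-beta and SMAD genes to rise, by 0.87. Outside the lists, OLR1, a receptor for oxidised lipoprotein, rose by 2.37 (SE 0.486, adjusted p = 0.00403), a call lost without unstimulated replicate 3 or TNF replicate 1.

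**Figure D3:**
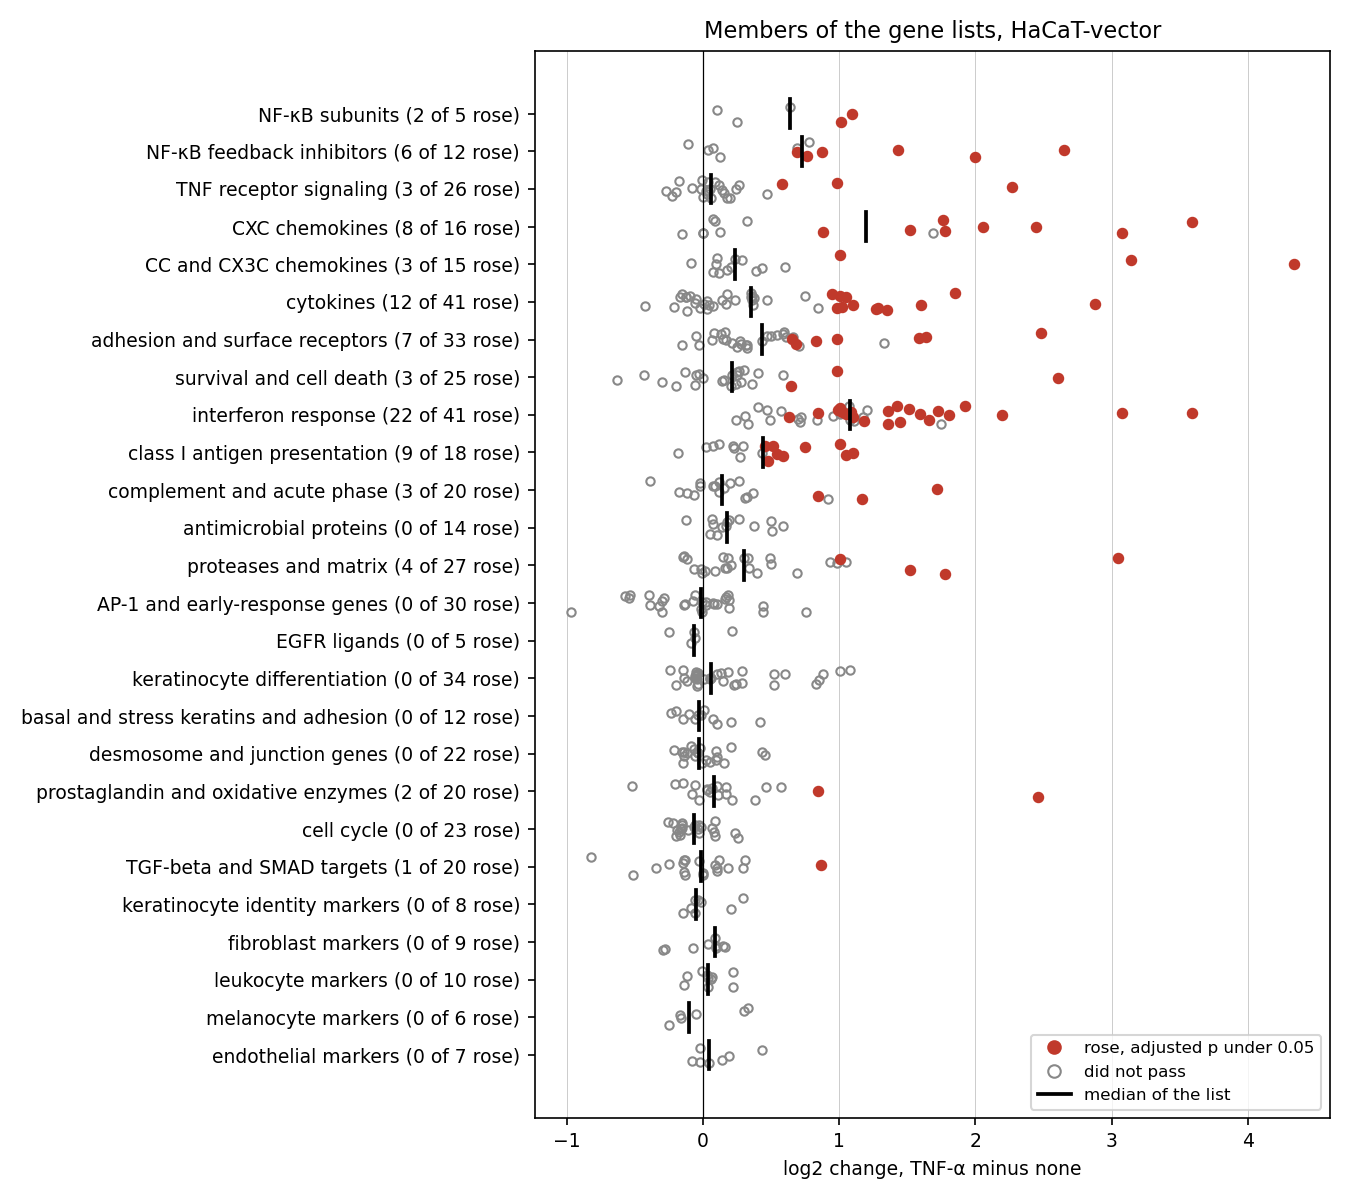
Log2 change with TNF in HaCaT-vector (x axis) of each measured gene of the gene lists (rows), with the median of each list marked and the genes that passed in colour. The interferon-response list has a median of 1.08 and the CXC chemokines 1.20. No gene of the AP-1, differentiation, keratin, junction and cell cycle lists passed, which for lists of this size is near the 0.885% of all genes that rose.

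No member passed in the lists of AP-1 and early-response genes (30 measured, median change -0.01), EGFR ligands (5, -0.07), keratinocyte differentiation (34, 0.06), antimicrobial proteins (14, 0.17), basal and stress keratins with their adhesion genes (12, -0.03), desmosomes and junctions (22, -0.03) and cell cycle (23, -0.07). Over all genes 0.885% rose and 0.0202% fell, so lists of this size with no call lie near these shares. FOS changed by -0.97 (adjusted p = 0.382) and FOSL1 by 0.76 (adjusted p = 0.558). Among the differentiation genes, SPRR4 changed by 1.08 (adjusted p = 0.0854) and IVL, involucrin, by 1.00 (adjusted p = 0.93). S100A8, an alarmin, changed by 0.50 and LCN2 by 0.38.

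The label of the cells fits their markers: all 8 measured keratinocyte markers had mean levels above 8 in both groups, the lowest being ITGB4 (8.43 and 8.42). None of 9 fibroblast, 6 melanocyte and 7 endothelial markers had a mean above 8. The melanocyte marker MITF came closest, with 7.77 without and 7.60 with TNF. COL1A1, the highest fibroblast marker, had 6.62 and 6.55. Of 10 leukocyte markers only LCP1, which epithelial lines can also make, was above 8 (10.64 without and 10.67 with TNF), and PTPRC (CD45) stood at about 4.2. No gene of these 5 lists passed with TNF, where 0.885% of all genes rose and 0.0202% fell. The median level of the 7 arrays ran from 6.25 to 6.31, their correlations from 0.991 to 0.998, and no 2 arrays were identical.

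In this fit 4 genes fell, and none of them passed in every repeat with an array left out. The number depended on the fit, with 49 falls without the date term, 32 in a fit to the 7 arrays alone (1 of the 4 among them) and 15 among genes above the median level. SLITRK6, a membrane protein known from neurons and the inner ear, had 6.55, 7.09, 7.30 and 7.19 without and 6.27, 4.91 and 5.46 with TNF, a change of -1.49 (SE 0.284, adjusted p = 0.00168), and did not pass without TNF replicate 1. The groups did not overlap, but TNF replicate 2 lay near unstimulated replicate 3. NUDT16, a nucleotide hydrolase, fell by 0.88 (SE 0.203, adjusted p = 0.0151), a call lost without unstimulated replicate 3 or 2 or TNF replicate 1 or 2. TMCC2 fell by 0.69 (SE 0.177, adjusted p = 0.0398) and passed only when TNF replicate 2 was left out, and RFX3, a transcription factor of ciliated cells, fell by 0.61 (SE 0.151, adjusted p = 0.0301) and passed only without the batch 6 array. None of the other probe sets of these 4 genes passed, and none of the 4 is in a list.

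The same stimulus was also given to HaCaT-p65, a line with forced expression of p65, in other batches and with its own unstimulated arrays: 5 TNF arrays, 4 at 4 h and 1 at 8 h, and 3 unstimulated arrays, 2 at 4 h and 1 at 8 h. One of the 5, replicate 3 of batch 3, is labelled TNF but appears as a 4 h control in the study's sample sheet, and its levels lay at those of the unstimulated cells for some response genes (CCL2 7.98, where the mean was 8.23 without and 10.39 with TNF in the other arrays) and between the groups for others (TNFAIP3 10.37, between 9.67 and 11.38). The design table of the study counts 5 TNF and 3 unstimulated arrays of this line, so the array stands as TNF there. Which entry is right is not known. Results for HaCaT-p65 are given without it, and with it where this differs. Since its levels were part of the reason to leave it out, larger changes without it are in part built in. The fit behind the HaCaT-vector values above kept this array as TNF, so it enters their pooled spread. For IGFL1, CCL20 and NFKBIA limma's adjusted p in HaCaT-vector was 8.49e-10, 4.02e-08 and 4.63e-08 with it. Without it these were 2.08e-11, 7.36e-09 and 1.58e-11. The number of genes passing in HaCaT-vector without it was not taken. Over all genes, 1.25% rose and 2.56% fell in HaCaT-p65 (248 and 506 genes), a split that turned to 388 and 126 when each array was centred on its median, and to 90 and 32 without the 4 h unstimulated replicate 1. Of the 175 genes that rose in HaCaT-vector, 83 rose in HaCaT-p65 and none fell (50 rose with the doubted array, where 0.698% of all genes rose and 1.34% fell), and by sign alone 169 were higher. Between 61 and 91 of them rose when a further HaCaT-p65 array was left out, 65 with the 4 h arrays only, and 100 after centring. The median change of the 175 was 0.56 in HaCaT-p65 (0.43 with the doubted array) against 1.02 in HaCaT-vector, where they had been chosen for their rise. SLITRK6, alone of the 4 genes that fell, fell there too, by 1.06 (adjusted p = 0.0118), a call lost with the doubted array (change -0.88, adjusted p = 0.0614).

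The change itself was then compared between the lines. With all arrays, 2 genes passed the test of the difference (0.0101% of genes), and without the doubted array 4 did (0.0202%). IGFL1 changed by 3.35 in HaCaT-vector and by 1.12 in HaCaT-p65, a difference of 2.23 (SE 0.36, adjusted p = 0.00585; 2.44 with the doubted array, adjusted p = 0.00589), a call lost without TNF replicate 1 of HaCaT-vector (adjusted p = 0.199). CCL20 changed by 3.14 and 0.90, a difference of 2.24 (SE 0.432, adjusted p = 0.0361; 2.40 with the doubted array, adjusted p = 0.0326). With all other arrays kept, this call was lost without any one of the 7 HaCaT-vector arrays (adjusted p of 0.0536 or more), without either unstimulated array of HaCaT-p65 in batch 2 or its 8 h TNF array, with the HaCaT-p65 arrays of 4 h only (adjusted p = 0.159) and after median centring (adjusted p = 0.0853). Its level without stimulus was 4.80 in HaCaT-vector and 7.37 in HaCaT-p65, and with TNF 7.94 and 8.28. NFKBIA changed by 1.99 and 0.89, a difference of 1.10 (SE 0.208, adjusted p = 0.0321) that did not pass with the doubted array (1.33, adjusted p = 0.101). TCIM, a small transcriptional regulator, was the only one of the 4 with a larger change in HaCaT-p65, 2.28 against 0.35 (difference -1.93, SE 0.36, adjusted p = 0.0321), and did not pass with the doubted array (-1.51, adjusted p = 0.498). Without TNF replicate 1 of HaCaT-vector, 0 genes passed limma's test with all other arrays kept. There 659 of 19775 genes had an unadjusted p under 0.05, less than the share of 0.05 that chance alone gives. With all arrays 1516 genes had such a p, more than that share. A gene that missed the threshold is not shown to respond alike in both lines.

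**Figure D4:**
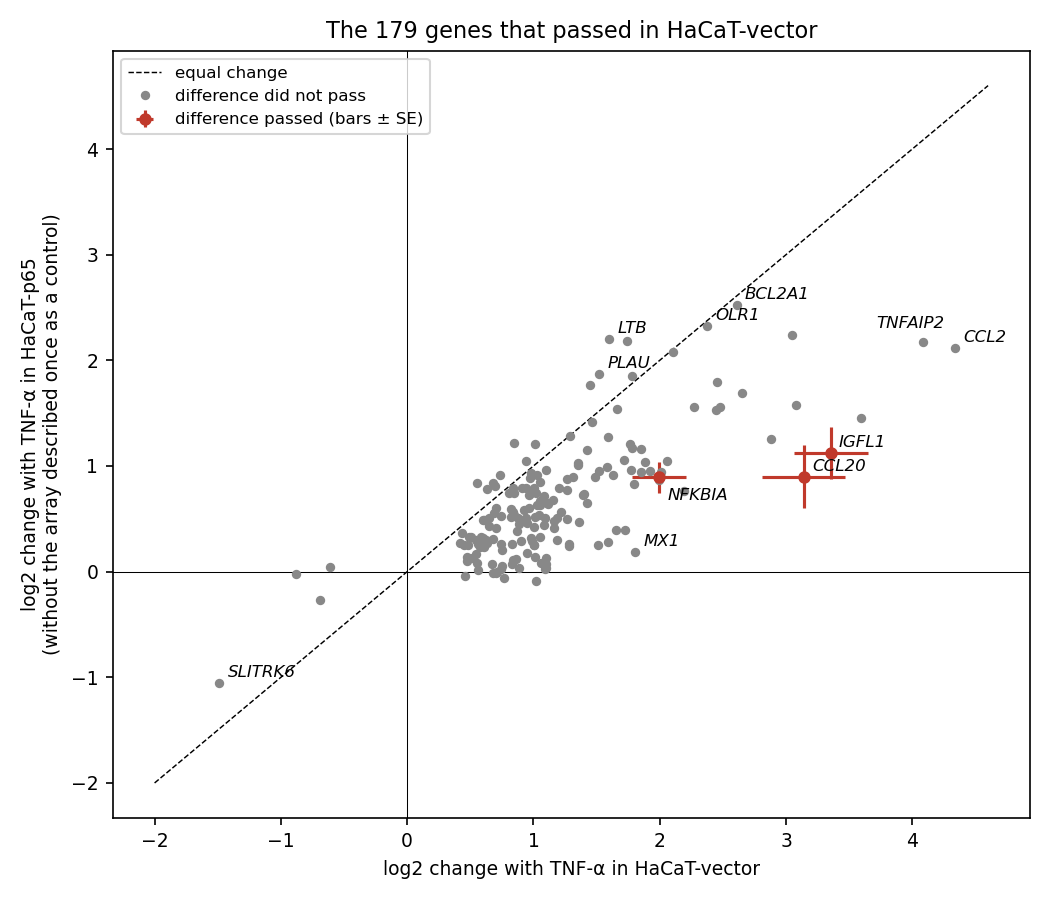
Log2 change with TNF in HaCaT-vector (x axis) against that in HaCaT-p65 without the doubted array (y axis) for the genes that passed in HaCaT-vector, with genes whose difference passed in colour and SE bars on these. Of the 175 genes that rose, 169 lie above 0 on both axes. Below the line of equal change lie 162 of the 175, IGFL1, CCL20 and NFKBIA among them, all chosen for their rise in HaCaT-vector.

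For other genes the values of both lines stand side by side, with no difference that passed. NFKB1 changed by 0.14 and RELB by 0.02 in HaCaT-p65, neither passing, and MX1 by 0.18, also not passing. CCL2 changed by 2.11 in HaCaT-p65 (SE 0.415, adjusted p = 0.00242), but with the doubted array by 1.68 and did not pass (adjusted p = 0.0513). ICAM1 rose by 1.56 (adjusted p = 9.3e-05), and by 1.18 with the doubted array (adjusted p = 0.0456). LTB rose by 2.20, PLAU by 1.87 and SOD2 by 1.22 there, against 1.60, 1.52 and 0.84 in HaCaT-vector, and the differences did not pass (adjusted p = 0.662, 0.79 and 0.564). Of the interferon-response list 7 of 41 rose in HaCaT-p65, of the inhibitors 7 of 12, and of the CXC chemokines 5 of 16, where 1.25% of all genes rose. With the doubted array these counts were 5, 3 and 4, where 0.698% of all genes rose.

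EGF, the other ligand given to HaCaT-vector for 4 h, offers a stimulated comparison in the same cells (4 arrays). TNF and EGF were set against the same unstimulated arrays, so the changes share their controls, while the direct difference TNF minus EGF shares the TNF arrays with the comparison above. Directly compared, 1.09% of genes were higher with TNF than with EGF and 0.319% were lower, 278 genes in all; the count was 146 without TNF replicate 1, 182 without TNF replicate 3 and 171 without EGF replicate 1 of batch 5. CCL2 had a mean of 6.05 with EGF and 10.97 with TNF (difference 4.93, SE 0.505, adjusted p = 1.65e-08). NFKBIA had 7.97 with EGF (difference 2.14, SE 0.205, adjusted p = 6.63e-09), and TNF 5.30 (difference 2.73, SE 0.258, adjusted p = 6.63e-09). None of these 3 genes passed in EGF against none. Of the interferon-response list 25 of 41 were higher with TNF than with EGF, of the CXC chemokines 7 of 16 and of the inhibitors 6 of 12. BCL2A1 had 6.12 with EGF, between the 2 other groups, and its difference of 1.63 did not pass (adjusted p = 0.111).

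**Figure D5:**
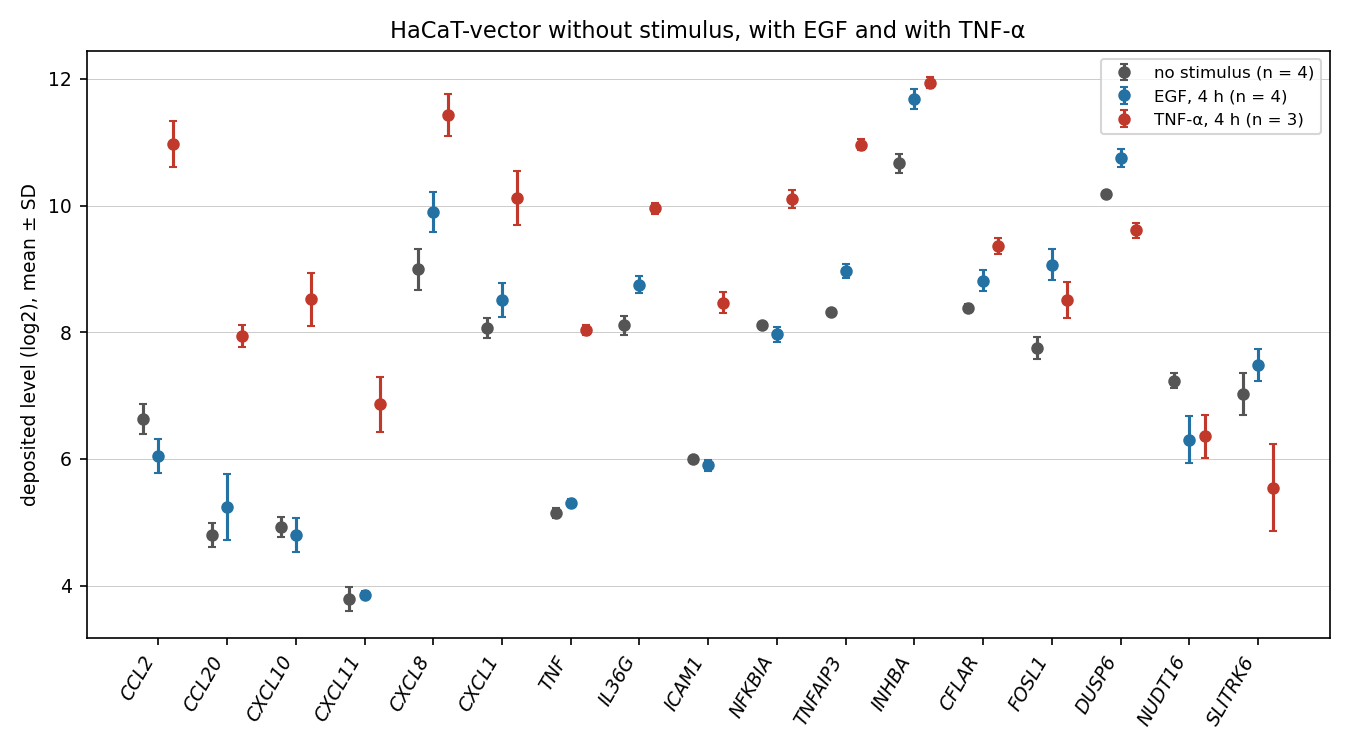
Log2 level (y axis) of chosen genes in HaCaT-vector without stimulus (n = 4), with EGF (n = 4) and with TNF (n = 3) at 4 h, each point the mean and each bar the SD over arrays. CCL2 lies at a mean of 6.64 without stimulus, 6.05 with EGF and 10.97 with TNF.

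Some genes moved with both ligands, and others differed between the ligands. INHBA changed by 1.27 with TNF and by 1.01 with EGF (adjusted p = 0.0149), with a difference of 0.26 (SE 0.244) between the ligands. VEGFC, a lymphatic growth factor, changed by 1.02 and 1.04, and LAMB3 by 1.01 and 1.03. Among the AP-1 and early-response genes, 5 of 30 were lower with TNF than with EGF and 1 was higher. Over all genes 0.319% were lower and 1.09% higher. Against no stimulus, none of the 30 passed with TNF. With EGF against none 4 of them rose and 1 fell, where 122 and 77 of all 19775 genes did. DUSP4, a phosphatase that acts on MAP kinases, differed by -1.88 (SE 0.234, adjusted p = 1.05e-06), the receptor tyrosine kinase inhibitor SPRY4 by -1.23, DUSP6 by -1.14, MYC by -0.80 and SPRY2 by -0.79. SLITRK6 was lower with TNF than with EGF by -1.94 (SE 0.275, adjusted p = 1.06e-05), whereas NUDT16, TMCC2 and RFX3 changed by -0.93, -0.80 and -0.65 with EGF, all past the threshold against the shared unstimulated arrays.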

How the data were processed

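The authors deposited log2 expression values of Affymetrix U133 Plus 2.0 arrays, which they had summarised by frozen RMA, and from which they had removed the coefficients of the array date with limma, per the methods and labels. The values were used as deposited. Of 54675 probe sets, 41097 had 1 gene symbol, 1801 several and 11777 none in the platform annotation. Each of 19775 genes was represented by its brightest single-symbol probe set, judged by the mean of the 58 arrays (10523 genes had several). Groups followed the labels; the batch is the labelled array date, and the unstimulated arrays of HaCaT-vector carry 2 arrays numbered 1. The labels give 1 RNA kit for all arrays, whereas the study's sample sheet gives another for batch 6.

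A linear model with 18 conditions and 6 batches was fitted to all 58 arrays (limma 3.58.1, R 4.3.3, 35 residual degrees of freedom), and the p-values of its moderated test were corrected across all 19775 genes by the Benjamini-Hochberg method; genes with an adjusted p under 0.05 passed. Since the date coefficients had already been removed, the batch term was near 0 but took its degrees of freedom. Precision is limited by the number of arrays. The text names the 15 largest rises and up to 10 largest falls among passing genes, and members of the gene lists. Members and lists were chosen with earlier results of these data known. The fit was tested on simulated data. Alternatives were no date term, the mean over probe sets, genes above the median level, median centring, a trended and robust spread, the 7 arrays alone, a replicate block, HaCaT-p65 at 4 h only, HaCaT-p65 without the doubted array, and each array left out. Further settings for HaCaT-p65 without the doubted array were chosen after seeing the data. Promoter windows came from RefSeq (GRCh38.p14). Tables were handled in Python 3.11.15 with pandas 2.3.3 and numpy 2.4.6.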

Additional observations from a re-analysis of the deposited data

Results flagged for a closer look

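MMP13 in unstimulated HaCaT-vector replicate 3 (batch 4) had a level of 8.81, apart from the nearest of the other 3 arrays at 9.50; the gap was 0.837 of the range of the group, and chance alone marks about 1 in 20 such groups. The change with TNF differed between HaCaT-vector and HaCaT-p65 for IGFL1, by 2.44, and for CCL20, by 2.40, in a test of the difference itself with all arrays.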

How the results depend on the processing

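For TNF against none in HaCaT-vector, 179 genes passed; 318 passed without the date term, and 57 (without TNF replicate 1) to 161 with 1 array left out. The fit to the 7 arrays alone gave 245 genes, and the other settings 142 to 198. Genes that fell numbered 4, but 49 without the date term, 32 in the fit to the 7 arrays alone and 15 among genes above the median level. For the difference between HaCaT-vector and HaCaT-p65, 2 genes passed; 11 passed without the date term, 7 among genes above the median level, 1 with the HaCaT-p65 arrays of 4 h only, 4 without the doubted HaCaT-p65 array, and 0 to 15 with 1 array left out, the highest without 1 of the 2 HaCaT-p65 TNF arrays numbered 2 in batch 3, and 11 without HaCaT-p65 unstimulated replicate 2. For TNF against EGF, 278 genes passed, and 146 to 242 with 1 array left out; without the date term there were 403. The cause of these shifts was not tested. The limma count of 0 was that without TNF replicate 1 of HaCaT-vector. There 659 of 19775 genes had an unadjusted p under 0.05, less than the share of 0.05 that chance alone gives.

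For same-numbered arrays of the HaCaT-vector groups, the correlations of their deviations from the group means were -0.0666, 0.158, -0.388 and 0.0915. TNF replicate 1 correlated best with unstimulated replicate 3 (0.519), an array of another batch. All pairs within a batch were negative (-0.388 to -0.0666). Removing the date coefficients takes out deviations that arrays of the same date share. These correlations therefore cannot decide whether arrays were paired. With the replicate number as a block, 142 genes passed, 138 of them higher. Within single batches no test was run, and only the size and direction were taken. Over 36 named genes, 567 values were recomputed; 452 kept their direction and side of the threshold, 43 kept the direction and no longer passed, and 0 reversed. Of the values within 1 batch, which had no test, 38 moved by less than the spread between replicates and 34 by more. With 3 TNF arrays, small changes may be missed.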

Other observations

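Of the genes that rose with TNF, 94 belong to none of the lists. SGPP2, a sphingosine-1-phosphate phosphatase, rose by 1.99 (SE 0.327, adjusted p = 0.000204). EFNA1, an ephrin ligand, rose by 1.89 (SE 0.257, adjusted p = 7.93e-06). MARCKSL1, an actin regulator, rose by 1.77 (SE 0.225, adjusted p = 2.07e-06), and NINJ1, which takes part in plasma membrane rupture, by 1.59 (SE 0.245, adjusted p = 7.65e-05). PRDM1, the transcriptional repressor BLIMP1, rose by 1.47 (SE 0.271, adjusted p = 0.00104), and APOL2, an apolipoprotein L, by 1.27 (SE 0.166, adjusted p = 3.95e-06). IFNAR2, a chain of the type I interferon receptor, rose by 1.03 (SE 0.177, adjusted p = 0.000372). These 7 passed without any one of the 7 arrays, and were picked after their values were seen. PARP9 and its partner DTX3L rose by 1.06 and 0.63; the first call was lost without TNF replicate 1, and the second passed in none of the 7 repeats with an array left out.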
